A study of Rattus norvegicus with 12 samples.

Results

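MiR-29a, miR-29b and miR-29c form a small family of microRNAs that is best known for holding down extracellular matrix genes. A microRNA is a short RNA that guides a silencing complex to messenger RNAs through its seed, bases 2 to 8 from its 5′ end. In mammals the miR-29 guides pair with messages for fibrillar collagens, fibrillin and elastin, the fibres that give an artery its stiffness and recoil, and the family has been studied in fibrosis and in aortic aneurysm. Each hairpin precursor is cut into a 5p and a 3p arm; in this family the 3p arm is the guide that is usually loaded and the 5p arm is the passenger strand.

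The family was taken from small RNA libraries of aorta from female spontaneously hypertensive rats (SHR), an inbred strain in which blood pressure rises without treatment. The groups were 6 samples with the treatment label EWH and 6 control samples given saline; egg white-derived peptides appear in the title of the series. The labels give no age, dose or length of treatment. They also do not say whether the samples came from separate animals, so every p-value reflects the spread among these samples alone, part of which may be technical. Members were all entries of the deposited table named miR-29a, miR-29b or miR-29c, whichever arm or copy, which gave 7 of 641 miRNAs. Values are in rpm, the reads of a miRNA scaled to a common library total, where 1 read was worth 0.0404 to 0.0419 rpm on totals of 23887799 to 24772944 reads. A miRNA was tested if 6 or more of the 12 libraries held 1 rpm or more, and 4 of the 7 members passed. They were the 3 guides rno-miR-29a-3p, rno-miR-29b-3p and rno-miR-29c-3p and the passenger rno-miR-29c-5p, written below without the rat prefix. The other 3 members were the passengers miR-29a-5p, miR-29b-5p and miR-29b-1-5p.

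All 7 members matched a mature sequence in RefSeq (build GRCr8), and the guides are shown because their shared seed and their few differing bases define the family. The seed is in capitals.
miR-29a-3p: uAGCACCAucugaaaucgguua
miR-29b-3p: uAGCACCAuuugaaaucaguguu
miR-29c-3p: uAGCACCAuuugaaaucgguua
The 3 guides share the seed AGCACCA, whose complement UGGUGCU is the pairing site in a target message, and no other of the 693 mature rat miRNAs in the RefSeq table has this seed. Counting from 1 at the 5′ end, miR-29c-3p differs from miR-29a-3p by the single substitution C10U. MiR-29b-3p differs from miR-29a-3p by C10U, G18A, U21G and A22U over the shared 22 bases and is 1 base longer. It ends in the hexamer AGUGUU, described in human cells as an element that directs miR-29b to the nucleus; searched as these 6 letters on the mature strand, the hexamer ends 2 of the 693 mature miRNAs (0.289%), the other being miR-92b-5p. With 1 base between miR-29a-3p and miR-29c-3p, how mismatched reads were assigned could move reads between them. The sources used here do not give that step.

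The precursors are shown because they show which members neighbour each other and which arm each comes from; the mature arms are in capitals.
Mir29a: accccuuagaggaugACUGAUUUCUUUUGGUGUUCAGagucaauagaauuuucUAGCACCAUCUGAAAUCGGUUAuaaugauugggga
Mir29b1: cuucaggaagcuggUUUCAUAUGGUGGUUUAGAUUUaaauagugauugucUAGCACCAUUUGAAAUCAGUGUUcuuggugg
Mir29b2: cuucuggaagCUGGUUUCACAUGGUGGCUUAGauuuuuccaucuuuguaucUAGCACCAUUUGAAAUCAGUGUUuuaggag
Mir29c: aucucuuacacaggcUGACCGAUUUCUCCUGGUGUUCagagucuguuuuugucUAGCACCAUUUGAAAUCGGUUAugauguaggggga
In the GRCr8 sequence table Mir29a lies at chr4:60617955-60618042 and Mir29b1 at chr4:60618334-60618414, both on the minus strand and 291 bases apart. Mir29b2 lies at chr13:109098831-109098911 and Mir29c at chr13:109099359-109099446, both on the plus strand and 447 bases apart. The deposited values were made on another build (rn6) and carry no coordinates, so these positions belong to the printed sequences. Mir29b1 and Mir29b2 give the identical guide miR-29b-3p, so reads of that guide cannot be told apart by locus, while their 5p arms are listed separately, as miR-29b-1-5p from Mir29b1 and as miR-29b-5p from Mir29b2. The 5p arms carry other seeds, CUGAUUU in miR-29a-5p, UUCAUAU in miR-29b-1-5p, UGGUUUC in miR-29b-5p and GACCGAU in miR-29c-5p, and none of these seeds occurs in another listed rat miRNA of the RefSeq table.

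The labelled tissue was checked against miR-143-3p, abundant in contractile smooth muscle, which held 42.3% to 53.6% of listed reads in EWH libraries and 45.2% to 54.1% in control libraries. EWH 3 and EWH 4 stood apart on the first principal component of all tested miRNAs, at 11.97 and 16.2 where the other 10 libraries lay between -7.94 and 4.94, and values without them are given where a result rests on them. Neuron and glia markers summed to 92.2 to 867 rpm in EWH and 58.6 to 151 rpm in control (3 of 5 tested, with miR-124-3p and miR-219a-5p too low to test). Epithelial markers summed to 75.1 to 195 rpm in EWH and 59.8 to 711 rpm in control (6 of 7 tested), and leukocyte markers to 100.5 to 181 rpm in EWH and 84.5 to 228 rpm in control (4 of 4 tested). Skeletal and cardiac muscle markers summed to 711 to 1436 rpm in EWH and 426 to 1366 rpm in control (4 of 6 tested). Of these 4, 2 had a higher and 2 a lower mean log2 level in EWH. The most abundant, miR-1-3p, averaged 807 ± 273 rpm in EWH and 394 ± 238 rpm in control (SD, n = 6 each). Its log2 fold change was 1.14 (limma Benjamini-Hochberg adjusted p = 0.128). MiR-499-5p went the other way, with means of 157 rpm in EWH and 262 rpm in control (n = 6 each). Its log2 fold change was -0.60 (limma Benjamini-Hochberg adjusted p = 0.23). Endothelial markers summed to 4264 to 6913 rpm in EWH and 3290 to 12300 rpm in control (2 of 2 tested). Erythrocyte markers summed to 110 to 360 rpm in EWH and 76.3 to 342 rpm in control (3 of 3 tested). The hepatocyte marker miR-122-5p read 125 to 801 rpm in EWH and 37.4 to 1006 rpm in control. Adipocyte and mesenchyme markers summed to 12.9 to 15.4 rpm in EWH and 12.6 to 34.7 rpm in control (1 of 2 tested). The part of these other cell types in the levels below was not tested. In whole tissue, fewer cells of a type and less RNA per cell cannot be told apart.

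MiR-29a-3p was by far the most abundant member. At a mean of 639 rpm over all libraries it ranked 41st of 641 miRNAs, next to miR-152-3p (669 rpm) and miR-1-3p (601 rpm). MiR-29b-3p ranked 146th at 25.3 rpm and miR-29c-3p 161st at 17.5 rpm. Mature lengths of the guides are 22 or 23 bases and the values carry no length term, so the levels can be set side by side, although ligation can favour one sequence over another in such libraries. MiR-29a-3p made up 93.7% ± 0.69 of guide reads in EWH and 93.8% ± 0.64 in control (SD, n = 6 each). MiR-29b-3p made up 3.996% ± 0.90 in EWH and 3.45% ± 0.57 in control, and miR-29c-3p 2.29% ± 0.90 in EWH and 2.79% ± 0.67 in control (SD, n = 6 each). The share of miR-29a-3p thus stayed within 92.7% to 94.9% in every library of both groups. The guides together took 0.0766% ± 0.010 of listed reads in EWH and 0.0967% ± 0.015 in control (SD, n = 6 each).

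The question put by the design is which aortic miRNAs differ between EWH and control, and for miR-29 the answer at the level of single members was a lower mean in EWH for all 4 tested members, with 0 of 4 past the threshold by limma or edgeR and 1 of 4 by DESeq2. Groups were compared with limma on log2(rpm + 1), so fold changes are on that scale and understate the change of low miRNAs. Of all 303 tested miRNAs, 60.1% had a lower mean log2 level in EWH, and the median log2 fold change was -0.28 over the 4 members and -0.06 over all tested. Over all tested miRNAs limma called 0 (0%) at a Benjamini-Hochberg adjusted p under 0.05. At an unadjusted limma p under 0.05 lay 1 of the 4 members, miR-29a-3p, against 23.1% of all tested miRNAs and 7.92% in the lower direction.

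MiR-29a-3p read 447 rpm at the lowest, 588 at the median and 628 at the highest in EWH, and 569, 721 and 847 rpm in control. All 6 EWH libraries lay below the control median, 2 of them below the lowest control, and 4 controls lay above the highest EWH library, but the groups overlapped. They also overlapped for the other tested members; among all tested miRNAs 1.65% had groups that did not overlap. Means were 568 ± 68.8 rpm in EWH and 709 ± 112 rpm in control (SD, n = 6 each), a ratio of 0.802. The log2 fold change was -0.31 (SE 0.12, 95% interval -0.58 to -0.04). Limma gave it a Benjamini-Hochberg adjusted p = 0.163 (adjusted p = 0.0247 to 0.357 over all alternatives and tools) and the 13th lowest moderated t of 303. Run on the recovered whole reads, edgeR (quasi-likelihood) gave a log2 fold change of -0.27 at Benjamini-Hochberg adjusted p = 0.0703, while DESeq2 gave -0.28 and called it at Benjamini-Hochberg adjusted p = 0.0247. DESeq2 called 20.8% of all tested miRNAs and 5.61% as lower in EWH, and edgeR called 13.2% and 1.98% as lower, so the call depends on the tool. Without EWH 3 and EWH 4 the log2 fold change was -0.33, and without control 6, the library with the highest epithelial sum, it was -0.27. With each library left out in turn it was nearest to 0 without EWH 2, at -0.245. The unadjusted limma p was then 0.0573, and it was 0.0607 without control 2 and 0.0588 without control 6. It stayed under 0.05 without each of the other libraries in turn. With the replicate number as a block it was 0.0607.

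MiR-29b-3p, the guide encoded at both Mir29b1 and Mir29b2, had the log2 fold change nearest to 0 of the 4. It read 13.1 rpm at the lowest, 26.5 at the median and 32.6 at the highest in EWH, and 20.5, 25.7 and 33.8 rpm in control. EWH 2 and EWH 3 lay below every control while the other 4 EWH libraries lay inside the control range. Means were 24.6 ± 7.37 rpm in EWH and 25.99 ± 5.24 rpm in control (SD, n = 6 each), with a log2 fold change of -0.11 (SE 0.22, 95% interval -0.59 to 0.37; limma Benjamini-Hochberg adjusted p = 0.792). Its sign turned when EWH 2 was left out, to 0.05.

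MiR-29c-3p had the log2 fold change farthest from 0 of the 4 tested members and also the widest spread on the log2 scale. It read 8.40 rpm at the lowest, 12.5 at the median and 23.9 at the highest in EWH, and 9.92, 20.8 and 28.8 rpm in control. EWH 6 lay among the controls and control 3 among the EWH libraries, while 5 of 6 EWH libraries lay below the control median. Means were 13.7 ± 5.70 rpm in EWH and 21.3 ± 6.73 rpm in control (SD, n = 6 each), a ratio of 0.644. The log2 fold change was -0.61 (SE 0.28, 95% interval -1.23 to 0.01; limma Benjamini-Hochberg adjusted p = 0.219). It reached -0.80 without control 3 and -0.78 without EWH 6, at limma adjusted p = 0.133 and 0.18 (Benjamini-Hochberg), so neither removal brought it past the threshold. Its reads averaged 334 per library in EWH and 519 in control. Counting error alone would give an SD of 5.47% of the mean in EWH and 4.39% in control, where the reads varied by 40.5% in EWH and 31.3% in control.

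**Figure D1:**
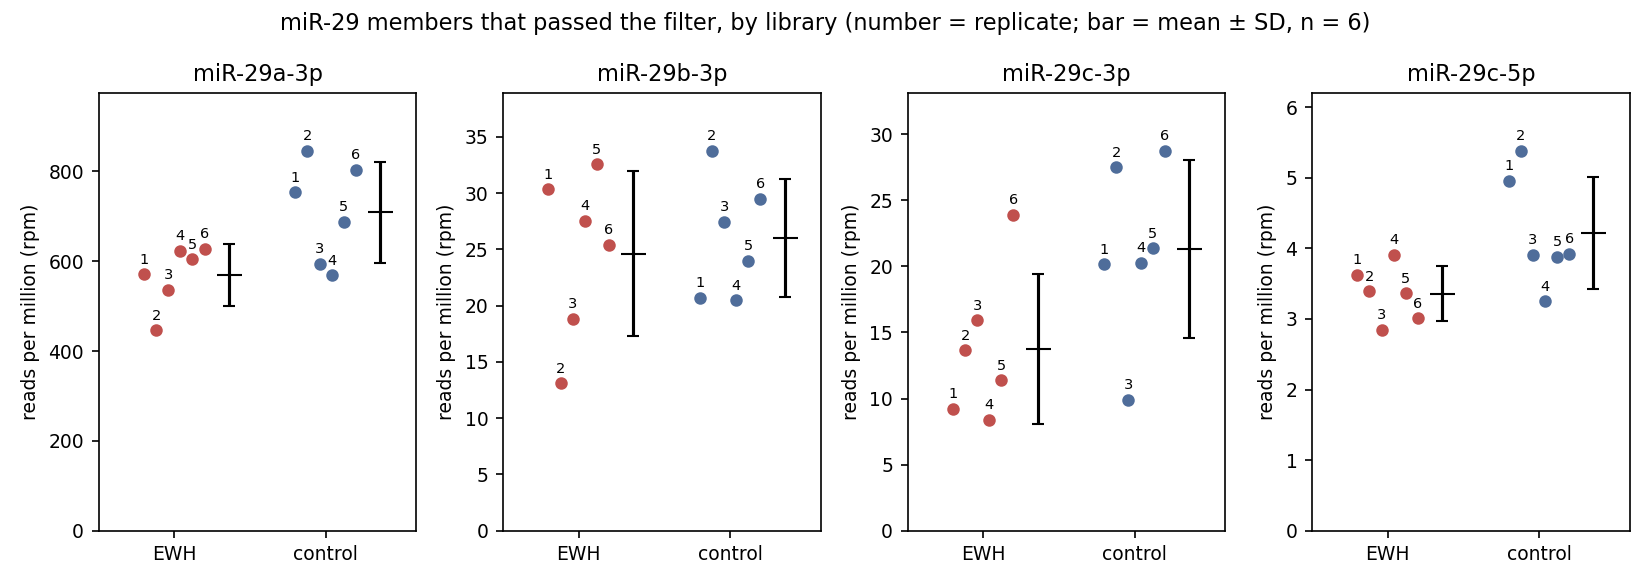
Levels of the 4 tested miR-29 members in rpm, with a point for each library numbered by replicate, EWH left of control, and a bar for the mean ± SD (n = 6). All 6 EWH libraries lie below the control median of 721 rpm for miR-29a-3p; EWH 6 and control 3 lie apart from their groups for miR-29c-3p.

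**Figure D2:**
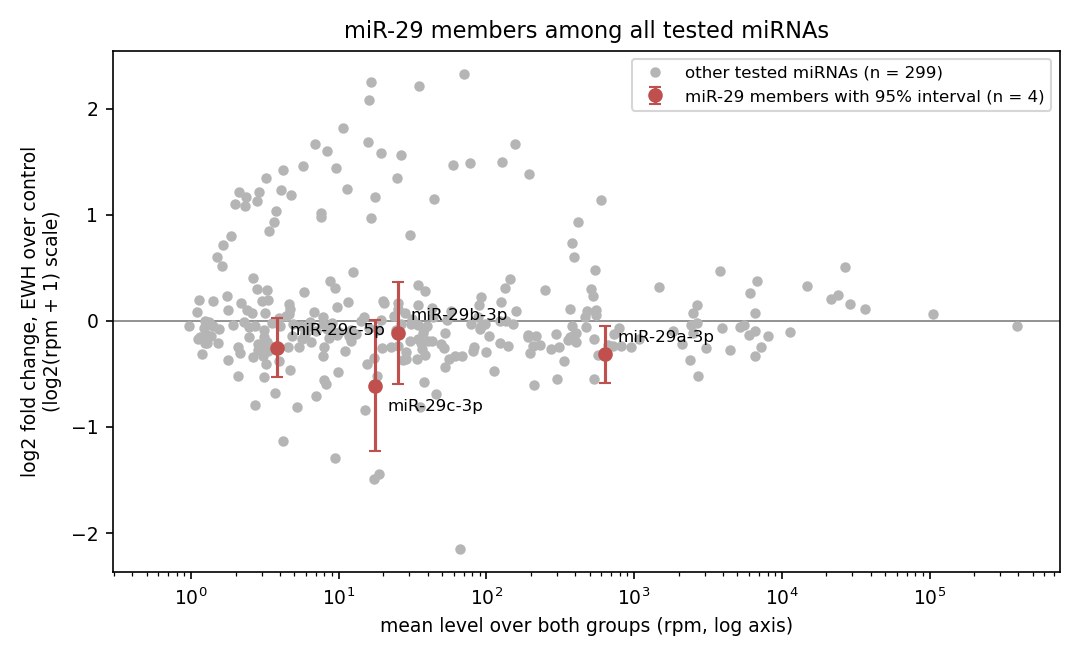
Log2 fold change of EWH over control against the mean level in rpm (log axis) for the 303 tested miRNAs, with 95% intervals for the 4 miR-29 members. The members lie between -0.61 and -0.11, and the interval of miR-29a-3p alone lies wholly below 0.

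The passenger strands were rare and unlike each other. MiR-29c-5p read 2.85 rpm at the lowest, 3.38 at the median and 3.91 at the highest in EWH, and 3.25, 3.92 and 5.39 rpm in control. All 6 EWH libraries lay below the control median. Means were 3.36 ± 0.39 rpm in EWH and 4.22 ± 0.79 rpm in control (SD, n = 6 each), with a log2 fold change of -0.25 (SE 0.13, 95% interval -0.53 to 0.03; limma Benjamini-Hochberg adjusted p = 0.258). Depth limited this strand more, at 70 to 129 reads per library. MiR-29a-5p held 3 to 11 reads per library and averaged 0.239 ± 0.11 rpm in EWH and 0.288 ± 0.10 rpm in control (SD, n = 6 each). MiR-29b-5p held 1 to 21 reads and averaged 0.253 ± 0.094 rpm in EWH and 0.329 ± 0.30 rpm in control (SD, n = 6 each). MiR-29b-1-5p had 1 read in all, in EWH 5, and a listed 0 allows up to 0.121 to 0.126 rpm, the value of 3 reads. These last 3 strands were under 1 rpm in every library and were not tested in the main fit.

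The passengers of miR-29a and miR-29c stood in the reverse order of their guides. Over all libraries miR-29a-3p had 36.4 times the reads of miR-29c-3p, yet miR-29c-5p had 14.4 times the reads of miR-29a-5p. For every read of the 5p arm there were 2423 of the 3p arm in miR-29a, 86.9 in miR-29b (with miR-29b-5p alone as passenger) and 4.63 in miR-29c. The 5p arm took 0.0430% ± 0.021 of miR-29a reads in EWH and 0.0410% ± 0.013 in control, and 21.5% ± 7.75 of miR-29c reads in EWH and 17.6% ± 5.84 in control (SD, n = 6 each). Among hairpins with both arms tested (76), miR-29c alone came from this family, and its log2((5p + 1)/(3p + 1)) was -1.68 ± 0.63 in EWH and -2.04 ± 0.50 in control (SD, n = 6 each). The difference of 0.36 (SE 0.28, 95% interval -0.24 to 0.96) did not pass limma (Benjamini-Hochberg adjusted p = 0.574). Limma called 0 of the 76 arm ratios (0%), with 14 (18.4%) at an unadjusted p under 0.05, which did not include miR-29c.

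MiR-29b-3p and miR-29c-3p are encoded side by side at Mir29b2 and Mir29c, but miR-29b-3p is also encoded at Mir29b1 on another chromosome. Their ratio pools both loci of miR-29b-3p and fell into 2 ranges. In 8 libraries it lay between 0.959 and 1.23, and in the other 4, EWH 1, EWH 4, EWH 5 and control 3, between 2.77 and 3.28, with nothing between. MiR-29b-3p exceeded miR-29c-3p in 11 of 12 libraries, the exception being EWH 2. Those 4 libraries also had the lowest miR-29c-3p levels, 8.40 to 11.4 rpm, and the highest 5p shares of miR-29c, 22.8% to 31.8%; their miR-29b-3p levels, 27.4 to 32.6 rpm, lay in the upper part of the range. The ratio, the level and the share all use the reads of miR-29c-3p, so they are not separate observations. MiR-29c-3p is 1 base from the far more abundant miR-29a-3p, and reads assigned to the wrong guide could enter each of them. The ratios of miR-29a-3p to miR-29b-3p had no such gap, running from 18.6 to 34.2 in EWH and from 21.7 to 36.4 in control. No label sets those 4 libraries apart.

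**Figure D3:**
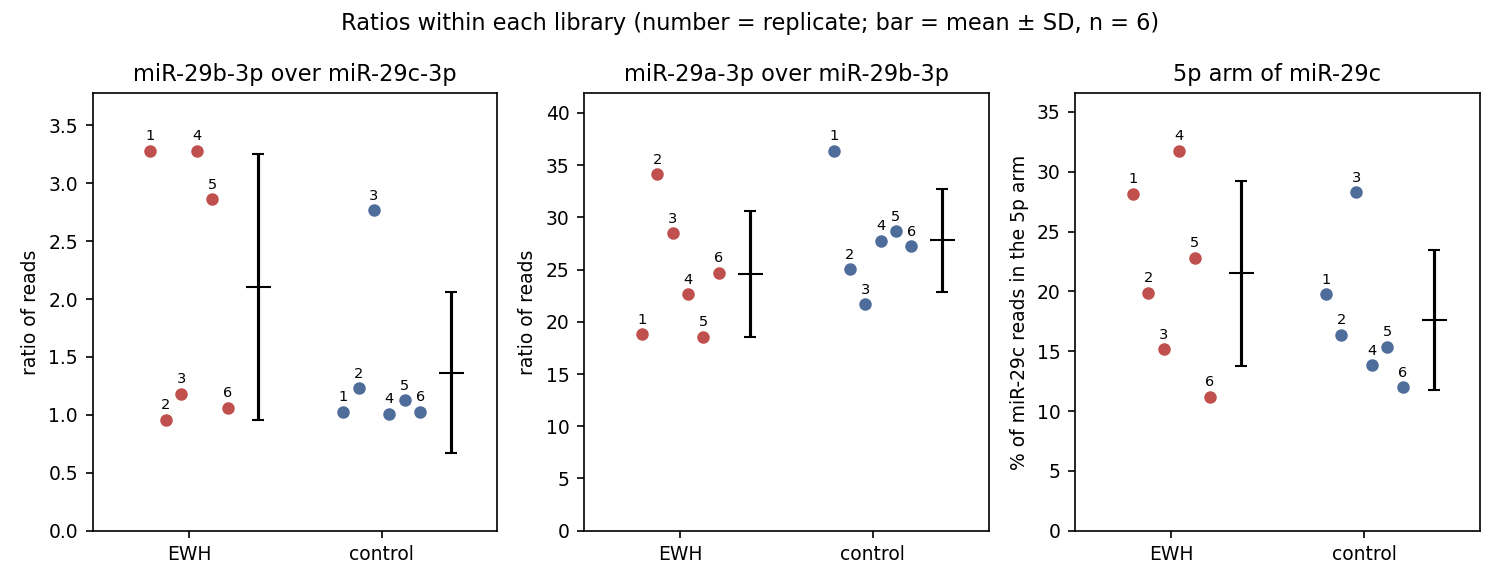
Ratios of reads of miR-29b-3p to miR-29c-3p and of miR-29a-3p to miR-29b-3p, and the percent of miR-29c reads in the 5p arm, with a point for each library numbered by replicate, EWH left of control, and a bar for the mean ± SD (n = 6). In the left panel EWH 1, 4 and 5 and control 3 lie at 2.77 to 3.28 and the other 8 libraries at 0.959 to 1.23.

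None of the 3 ratios between guides, taken as log2 with 1 rpm added to each level, passed an exact permutation test between groups. The log2 ratio of miR-29b-3p over miR-29a-3p averaged -4.52 ± 0.32 in EWH and -4.73 ± 0.24 in control (SD, n = 6 each; two-sided exact permutation p = 0.253). That of miR-29c-3p over miR-29a-3p averaged -5.34 ± 0.56 in EWH and -5.04 ± 0.39 in control (SD, n = 6 each; exact permutation p = 0.323). That of miR-29c-3p over miR-29b-3p averaged -0.82 ± 0.81 in EWH and -0.32 ± 0.53 in control (SD, n = 6 each; exact permutation p = 0.221). Adjusted over the 3 ratios by Benjamini-Hochberg each exact p was 0.323, where 924 assignments of samples to groups allow a smallest p of 0.00216.

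Over the 12 libraries together, on the log2(rpm + 1) scale, the pair with the highest correlation was miR-29a-3p and miR-29c-5p, from different chromosomes, with Pearson r = 0.735 (permutation p = 0.0072, Benjamini-Hochberg adjusted over 6 pairs 0.0432) and Spearman rho = 0.72 (permutation p = 0.0109, adjusted 0.0656). Without control 2 and EWH 2, the libraries farthest from the median of miR-29a-3p, r was 0.699. Within groups r was 0.144 in EWH and 0.779 in control. Permutations shuffled libraries across both groups, and both these members had lower means in EWH. The pooled r and its p thus also hold the difference between groups. MiR-29a-3p and miR-29b-3p had r = 0.637 and rho = 0.559 (permutation p = 0.0261 and 0.064, adjusted 0.0783 and 0.128). That relation rested on control 2 and EWH 2, without which r was 0.148; within groups r was 0.886 in EWH, the highest of the 6 pairs there, and 0.572 in control. Differences between these coefficients were not tested. MiR-29b-3p and miR-29c-3p had r = -0.0187 and rho = 0 (permutation p = 0.956 and 1). The arms of miR-29c, cut from the same precursor, had r = 0.241 and rho = 0.147 (permutation p = 0.449 and 0.65), with -0.854 within EWH and 0.284 within control. No batch is given in the labels, so no value within batches can be had.

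Among tested miRNAs outside the family, those with a pattern most like miR-29a-3p over the 12 libraries were miR-339-5p (Pearson r = 0.899), miR-132-3p (0.897) and miR-221-5p (0.892). For miR-29b-3p they were miR-26b-3p (0.903), miR-15b-5p (0.854) and miR-664-3p (0.830). MiR-29c-3p had no comparably close partner, the nearest being miR-27a-3p (0.651), miR-27b-3p (0.618) and miR-191a-3p (0.586). Taken as deviations from the group means, the nearest were miR-132-3p for miR-29a-3p (0.907), miR-15b-5p for miR-29b-3p (0.921) and miR-27b-3p for miR-29c-3p (0.581). These coefficients describe 12 libraries that share their scaling, and whether they were prepared together is not given.

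Other miRNAs known from matrix regulation also had mostly lower means in EWH, whichever way they act. Both lists were chosen with earlier results of these data known, and several entries are members of 1 family. The counts below thus describe these entries and are not separate observations. Of 13 tested members of a list that limits matrix or fibrosis (the miR-30, miR-133, miR-101 and miR-26 families, miR-18a and miR-19), 12 had lower means in EWH, where 60.1% of all tested miRNAs did, and the median log2 fold change was -0.21, where it was -0.06 over all tested. Limma called 0 of them at a Benjamini-Hochberg adjusted p under 0.05, and 1, miR-19b-3p, lay under an unadjusted p of 0.05 and lower in EWH, as did 7.92% of all tested miRNAs. MiR-26a-5p, the most abundant, averaged 107494 ± 8599 rpm in EWH and 102896 ± 8690 rpm in control, and miR-30d-5p 3785 ± 207 rpm in EWH and 4038 ± 897 rpm in control (SD, n = 6 each). Of 9 tested members of a list that promotes fibrosis, 8 had lower means in EWH and the median was -0.26, to be read against the same shares. Limma called 0 of these too, and 2, miR-21-5p and miR-33-5p, lay under an unadjusted p of 0.05 and lower in EWH. MiR-21-5p, raised in injured vessels and fibrotic tissue, averaged 5804 ± 836 rpm in EWH and 7380 ± 1503 rpm in control, and miR-199a-3p 2781 ± 431 rpm in EWH and 3345 ± 629 rpm in control (SD, n = 6 each). MiR-18a-5p and miR-377-3p were too low to test.

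**Figure D4:**
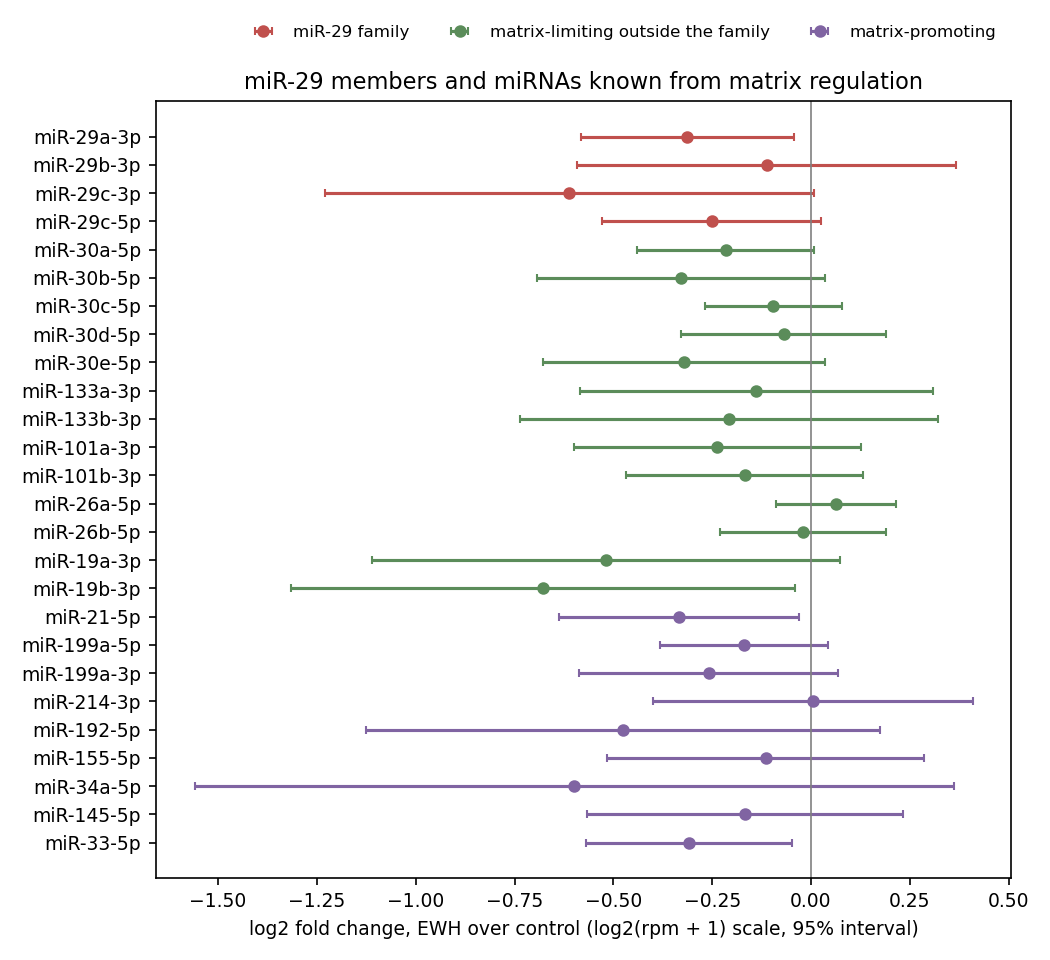
Log2 fold change of EWH over control with 95% intervals for the 4 tested miR-29 members, 13 miRNAs known to limit matrix and 9 known to promote it. Points of all 3 sets lie mostly below 0, with medians of -0.28, -0.21 and -0.26.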

How the data were processed

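The authors deposited 1 table of rpm values for 641 mature rat miRNAs in 12 aorta libraries; the table is named for TPM, but no length term was found. Dividing by the smallest step of a library gave whole reads for 99.7% of values within 0.01 read. Per the labels' protocols, inserts of 15 to 35 nt were sequenced after adaptor ligation; per the submitters' processing notes the build was rn6; the sources used here do not give the aligner, the annotation or the reads in the total. Columns were mapped through each sample's description and groups through the treatment label; 0 columns were left over.

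The 303 miRNAs at 1 rpm or more in 6 or more of the 12 libraries were compared as log2(rpm + 1) with limma 3.58.1 (trend, two-sided, R 4.3.3), Benjamini-Hochberg adjusted at 0.05 over all tested; arm ratios used limma without trend, a choice made in the analysis, and guide ratios an exact permutation test. On recovered reads edgeR 4.0.16 and DESeq2 1.42.0 were alternatives. Fits were tested on simulated data. Where 5p or 3p arms of several hairpin copies share 1 listed partner, that partner served each copy. Named miRNAs were all members, the 3 nearest patterns of each guide, the neighbours in level, and abundant members of both matrix lists; any other name was picked with its values known. Members and lists were chosen with earlier results of these data known. Limma intervals rest on the spread among libraries; the 3-read floor and the counting SDs cover counting error only, since no molecular identifiers are mentioned.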

Additional observations from a re-analysis of the deposited data

Results flagged for a closer look

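Of 21 groups of 6 values examined for a single distant sample (the 7 members, the 3 guide ratios and the miR-29c arm ratio in each group, less a group of zeros), 2 had one. The cutoff gives about 1 in 20 by chance only for separate groups of normally distributed values. The ratios reuse the values of the members, so the 2 flags cannot be set against that rate. In control, the log2 ratio of miR-29c-3p over miR-29b-3p, with 1 rpm added to each level, was -1.38 in control 3, where the nearest other control lay at -0.29; the gap was 0.801 of the group's range. In EWH, miR-29b-1-5p stood at 0.0415 rpm in EWH 5, which is a single read, where the other EWH libraries were listed at 0. With all others at 0 the gap is the whole range, so any single read would have been flagged.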

How the results depend on the processing

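Of the 4 tested members, limma called 0 under each alternative run, including with each library left out in turn (0 to 0), and edgeR called 0; DESeq2 called 1, miR-29a-3p. MiR-29a-3p kept a lower mean in EWH in all 25 alternatives (log2 -0.395 to -0.201, adjusted p 0.0247 to 0.357 over all tools), as did miR-29c-3p (-0.804 to -0.494, adjusted p 0.133 to 0.404) and, in 24, miR-29c-5p (-0.403 to -0.138), which a filter at 10 rpm removed. MiR-29b-3p turned to 0.0494 without EWH 2 (-0.201 to 0.0494 with each library left out). Guide ratios and the miR-29c arm ratio kept their direction, with 0 calls, in each alternative.

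Over all tested miRNAs limma called 0, but 8 after quantile normalization, 24 without EWH 2 (range with a library left out 0 to 24), 1 without EWH 4 and 1 without EWH 3 and 4 together; edgeR called 40 and DESeq2 63. Leaving out EWH 3 and 4 together and scaling to reads other than miR-143-3p were chosen after seeing the data. With the replicate number as a block, limma called 0 miRNAs and 0 members (57 miRNAs at an unadjusted p under 0.05, against 70 without the block). Deviations from the group means correlated between same-numbered samples at r -0.504 to 0.313, and the best match of a sample was not always its own number. The labels do not say whether equal numbers mark a pair, and such correlations cannot decide it. Reads per library limit miR-29a-5p, miR-29b-5p and miR-29b-1-5p. They were tested only in the alternatives without a filter, where limma called 0 of the 7 members.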
